A study of Mus musculus with 6 samples.

Results

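The kinesin motor family was described in single-cell RNA profiles of mouse testis. Members were all gene symbols made of Kif, a number and at most 1 further letter and digit that had at least 1 unique molecular identifier (UMI, the tag that marks 1 captured transcript). The rule gave 38 members of 25771 genes, and all 38 symbols that fit the pattern had a UMI. The deposited table held 46495 cells in 6 libraries, 3 from adult C57BL6 mice of the genotype NONO deltaER (libraries TD, TE and TF) and 3 from adult C57BL6 mice of the genotype NONO (libraries TA, TB and TC). Per the labels, single cells were freed by enzyme and captured by the 10x Genomics 3′ method. The cell table names the genotypes KI and WT. These were read as NONO deltaER and NONO, and every direction between genotypes turns round if that reading is wrong. The sources used do not state what the deltaER allele alters. No source ties libraries to animals, so the p-values compare genotypes against a spread among libraries that may be technical only.

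Libraries held 6261 to 8909 cells and 81042216 to 110018960 UMI, and 650 cell barcodes occurred in more than 1 library. The mean mitochondrial share of UMI was 0.462 to 0.507% in libraries TF, TA and TB, and 0.226 to 0.342% in TD, TE and TC, and a fit with this split as a term gave the same number of calls as the fit without it. The 17 deposited fine cell classes are used under their deposited names. Some names did not match their markers. The class Differentiated SG (spermatogonia) had the highest Stra8, Dmc1 and Prdm9, which mark entry into meiosis. The class Preleptotene SC (spermatocytes) had the highest Sycp1, Hormad1 and Meiob, genes of meiotic chromosome structure and recombination. The class Round ST(Step 1-2) (spermatids) belongs to the deposited broad class of spermatocytes, and it is counted with the spermatocytes here. Of 4 measured late spermatocyte markers, Ccna1 and Ovol1 were highest there, and Piwil1 and Hspa2 in Lep/Zygo/ePac SC. Their sum in Round ST(Step 1-2) was 75.5% of that in Lep/Zygo/ePac SC, the highest class. The class Unknown had the highest Dcn and Pdgfra, genes of fibroblast-like cells. Levels are in CPM, the UMI of a gene per 1000000 UMI of its class and library. They are thus shares of the RNA captured in a class, not amounts per cell. Each UMI tags 1 transcript near its 3′ end, so CPM is not scaled by gene length. The genes from which the classes were drawn are not known here and may include kinesins, so levels between classes are given without a test.

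Kinesins are motor proteins that use ATP to walk along microtubules or to take microtubules apart at their ends. Dividing cells need them to build the spindle, to align and part chromosomes and to finish cytokinesis. Male germ cells pass through mitosis, the meiotic divisions and a reshaping without division, in which spermatids build a flagellum and a manchette, a skirt of microtubules around the nucleus. Other kinesins move cargo along axons, cilia and the cytoplasm of somatic cells.

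The promoters of mitotic kinesins are shown because many of them share a short element. The cell cycle homology region (CHR), TTTGAA or TTCGAA, is known as the docking site of the complexes that repress and activate genes of mitosis. Promoters were 300 bases, 250 before and 50 after an annotated start, which can lie inside the span of a gene. On either strand, the CHR occurred in 19.2% of 32851 mouse promoters. It occurred in 13 of the 35 promoters of the 31 members with a promoter sequence (37.1%). Of the 12 spindle, chromosome and cytokinesis motors with a promoter sequence, 9 held it (75%): Kif4, Kif11, Kif14, Kif15, Kif18b, Kif20b, Kif22, Kif23 and Kif2c. Of 9 cilium and flagellum motors 2 held it, and of 7 cargo motors 1 held it. These counts by role are of members with the CHR in any of their promoters, whereas the 19.2% is a share of single promoters. The 75% is thus not on the same unit as the 19.2%, and no share per gene was counted over all genes. Windows of 6 of these genes follow, written 5′ to 3′ on the strand of the gene with the CHR in capitals (TTCAAA is TTTGAA on the other strand). A further copy follows the capitals of Kif20b directly and is left in lower case.
Kif11: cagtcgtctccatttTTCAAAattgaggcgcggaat
Kif15: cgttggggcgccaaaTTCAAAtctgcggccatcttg
Kif23: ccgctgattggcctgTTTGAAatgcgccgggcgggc
Kif4: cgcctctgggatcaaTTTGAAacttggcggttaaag
Kif20b: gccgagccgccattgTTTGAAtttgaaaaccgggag
Kif2c: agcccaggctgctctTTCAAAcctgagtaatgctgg
In the RefSeq sequences of build GRCm38.p6, these windows lie for Kif11 at chr19:37376348-37376383 on the plus strand, for Kif15 at chr9:122951047-122951082 on the plus strand, for Kif23 at chr9:61946777-61946812 on the minus strand, for Kif4 at chrX:100626069-100626104 on the plus strand, for Kif20b at chr19:34922350-34922385 on the plus strand, and for Kif2c at chr4:117178855-117178890 on the minus strand. The windows of Kif2c, Kif4 and Kif15 belong to starts inside the annotated genes. These span chr4:117159639-117182639, chrX:100625737-100727214 and chr9:122951046-123018733, and the start of Kif15 lies close to the first base of its gene. The CHR of Kif14 and that of Kif22 also belong to such inner starts.

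The cyclic AMP response element (CRE), TGACGTCA, is bound by factors of the CREB family, which includes CREM, a regulator of genes in spermatids. It reads the same on both strands. It occurred in 1.79% of all promoters and in those of 3 members, Kif17 and Kif5c, which were highest in spermatid classes, and Kif18a, which was highest in a spermatocyte class. The windows around it are shown with the CRE in capitals.
Kif17: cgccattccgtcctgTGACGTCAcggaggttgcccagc
Kif5c: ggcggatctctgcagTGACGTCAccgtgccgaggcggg
Kif18a: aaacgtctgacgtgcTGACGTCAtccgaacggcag
The windows lie for Kif17 at chr4:138262150-138262187 on the plus strand, for Kif5c at chr2:49619245-49619282 on the plus strand, and for Kif18a at chr2:109280753-109280787 on the plus strand. That of Kif17 belongs to a start inside the annotated gene, which spans chr4:138250435-138301967. The CCAAT box, CCAAT on either strand, occurred in 37.4% of all promoters and in 15 of the 35 promoters of members (42.9%). The E2F site, TTTGGCGC or TTTCGCGC on either strand, occurred in 0.813% of all promoters and in those of Kif15 and Kif18a. No hits of different motifs overlapped. Kif2b, the member with the highest level of all, held a CCAAT box and none of the other motifs, and its whole promoter of 300 bases at chr11:91577506-91577805 on the minus strand is shown with that box in capitals.
Kif2b: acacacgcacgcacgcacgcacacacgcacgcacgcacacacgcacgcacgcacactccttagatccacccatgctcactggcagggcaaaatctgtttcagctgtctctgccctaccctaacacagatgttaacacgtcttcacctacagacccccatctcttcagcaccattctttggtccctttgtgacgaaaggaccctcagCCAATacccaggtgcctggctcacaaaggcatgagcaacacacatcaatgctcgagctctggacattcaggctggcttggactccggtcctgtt
A match describes these letters alone and shows no binding.

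Of the 38 members, 36 had at least 30 UMI in a class and were placed in the class of their highest mean level. Kif12, with 6 UMI in all, and Kif3c, with 124, were too low to place. Classes were grouped by their deposited broad class. The class of highest level lay in the broad class SPG (Undifferentiated SG, Differentiated SG and Preleptotene SC) for 13 members, among spermatocytes for 11, among spermatids for 7 and among somatic classes for 5. SPG is used as a deposited name only, since its classes Differentiated SG and Preleptotene SC carried markers of meiotic entry and early spermatocytes, and 7 of the 13 members were highest in Differentiated SG, where the 5 measured early spermatocyte markers reached 72.8% of their highest sum. By role, the 13 spindle, chromosome and cytokinesis motors divided into 5 highest in SPG, 6 in spermatocyte and 2 in spermatid classes. The 10 cilium and flagellum motors gave 2, 4 and 3 in those groups, and Kif3c was not placed. The 11 cargo motors gave 5 in SPG, 2 in spermatid and 4 in somatic classes. In 13 of the 36, every library of the highest class lay above every library of all other classes, whereas 22 overlapped the next class. Single genes take a large share of the UMI of late spermatids (the protamine Prm2 had 111396 CPM in Round ST(Step 7-8)), so the class was also found after scaling with TMM factors (trimmed mean of M values) over all classes. Mean factors ran between 0.192 in steps 6-7 and 2.40 in undifferentiated spermatogonia. The highest class stayed for 22 of the 36 and changed for Kif1a, Kif3a, Kif4, Kif5b, Kif9, Kif11, Kif14, Kif15, Kif16b, Kif20b, Kif23, Kif24, Kif27 and Kif28. Shares of a subfamily within a class do not depend on this scaling.

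**Figure D1:**
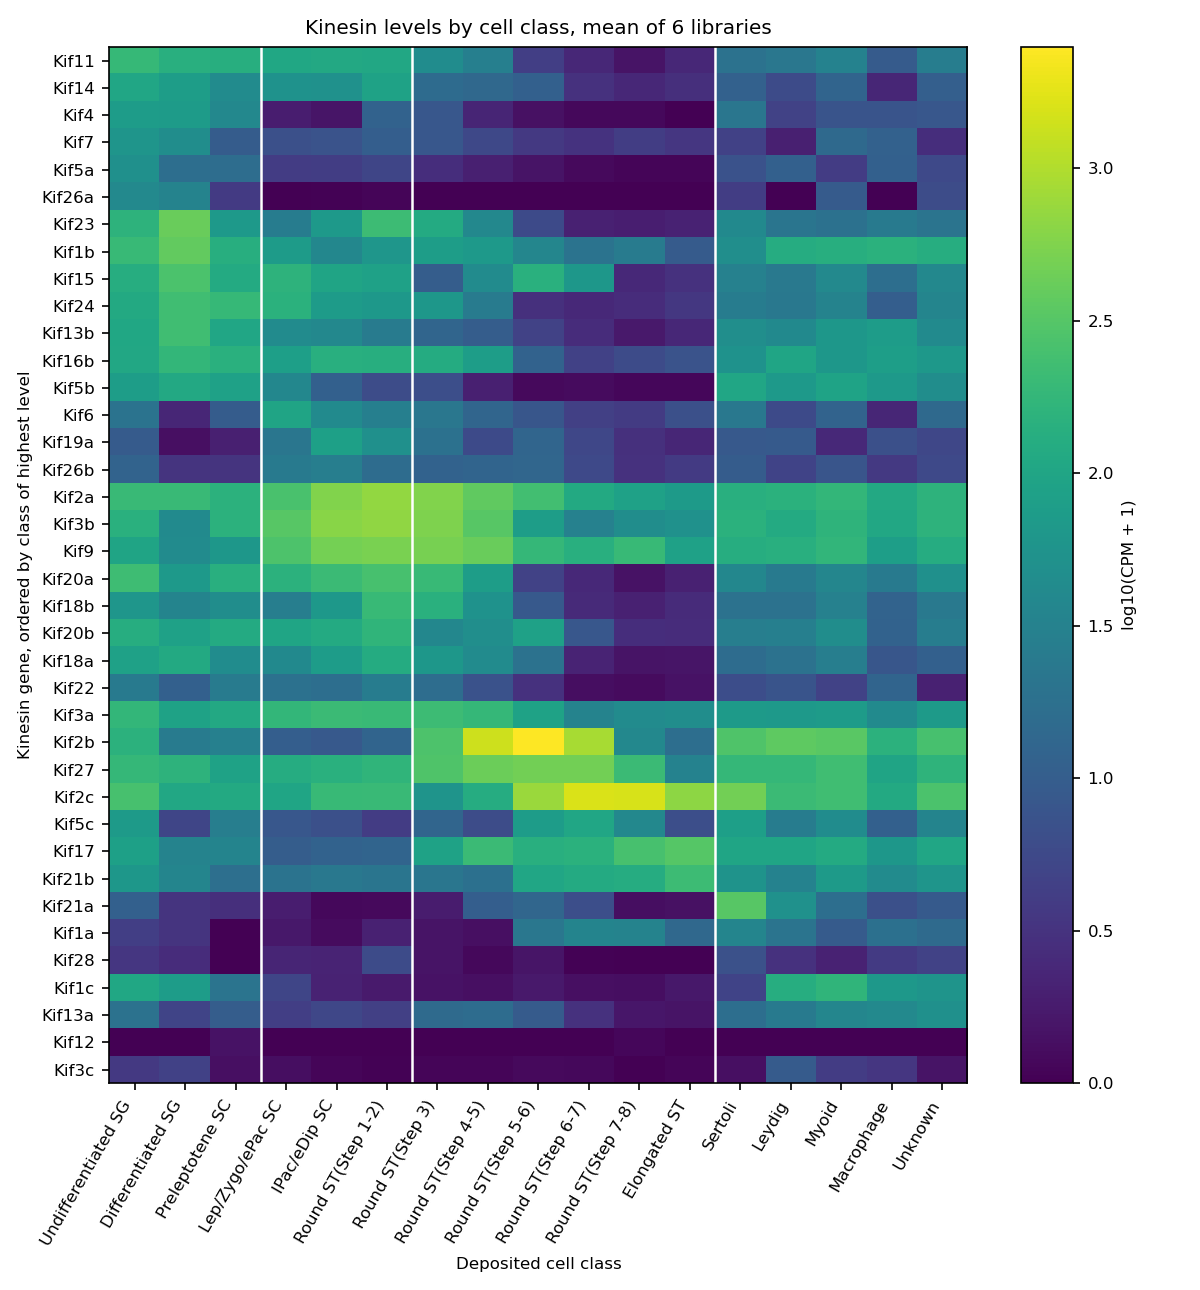
Mean level of the 38 kinesins (rows) in the 17 deposited classes (columns), as log10(CPM + 1) over 6 libraries, with lines between SPG, spermatocyte, spermatid and somatic classes. Mitotic motors are bright at the left, Kif2a, Kif3b and Kif9 in the middle, and Kif2b (2492 CPM) and Kif2c (1592 CPM) stand out in spermatids; with TMM factors over all classes the highest class changed for the 14 genes named in the text.

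Several mitotic motors were highest in SPG classes. Kif23, the motor of the centralspindlin complex that organises the midzone in cytokinesis, had 357 to 504 CPM (median 410.3) in Differentiated SG and averaged 422 ± 57.3 CPM (SD, n = 6). Every library there lay above every library of the next class, Round ST(Step 1-2), at 211 ± 11.2 CPM, although with TMM factors over all classes Round ST(Step 1-2) came first. Between these highs, Kif23 had 25.9 ± 1.01 CPM in Lep/Zygo/ePac SC. Kif11, which pushes spindle poles apart, had 164 to 211 CPM (median 186) in Undifferentiated SG, averaged 188 ± 18.6 CPM and held 107 CPM in Round ST(Step 1-2), the class that came first with TMM factors. Its libraries in Undifferentiated SG lay above those of all other classes.

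Kif15, which can take over from Kif11 in building a bipolar spindle, had 234 to 299 CPM (median 275) in Differentiated SG and 269 ± 25.4 CPM on average. It had 8.91 ± 0.794 CPM in Round ST(Step 3) and 142 ± 14.0 CPM in Round ST(Step 5-6), cells that no longer divide, and with TMM factors its highest class was Round ST(Step 6-7). The ranges of steps 3 and 5-6, 7.65 to 10.1 and 120 to 161 CPM, did not overlap. Kif4, a chromokinesin of the spindle midzone and the only member on the X chromosome, had 41.3 to 96.8 CPM (median 75.9) in Undifferentiated SG. It averaged 74.2 ± 18.5 CPM there and 72.4 ± 20.1 CPM in Differentiated SG, which came first with TMM factors. It had 0.846 ± 0.358 CPM in Lep/Zygo/ePac SC, 0.553 ± 0.270 CPM in IPac/eDip SC and 10.7 ± 2.24 CPM in Round ST(Step 1-2).

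Some cargo and cilium motors were also highest in SPG classes. Kif1b, which carries mitochondria and vesicles, had 342 to 409 CPM (median 373) in Differentiated SG and averaged 378 ± 27.2 CPM, with no overlap with the next class, Undifferentiated SG, at 196 ± 20.2 CPM. Kif13b, a vesicle motor, averaged 223 ± 37.8 CPM in Differentiated SG, also without overlap with the next class. Kif24, which trims microtubules at the mother centriole and restrains cilium growth, averaged 224 ± 28.5 CPM, and Kif16b, a motor of early endosomes, 175 ± 55.8 CPM in Differentiated SG. Both overlapped Preleptotene SC, and with TMM factors Kif24 was highest in Lep/Zygo/ePac SC and Kif16b in Round ST(Step 1-2). The other 6 members highest in SPG classes, Kif5a, Kif5b, Kif7, Kif14, Kif26a and Kif4, reached 38.1 to 111 CPM at their highest. Of these, Kif14, a cytokinesis motor, averaged 101 ± 13.5 CPM in Undifferentiated SG and 91.0 ± 5.61 CPM in Round ST(Step 1-2), which came first with TMM factors, and the libraries overlapped. Kif7, a regulator of Hedgehog signalling at the tip of cilia, averaged 57.5 ± 11.0 CPM in Undifferentiated SG and overlapped Differentiated SG at 45.3 ± 10.9 CPM. Kif5a, a heavy chain of conventional kinesin known from neurons, averaged 50.1 ± 4.66 CPM in Undifferentiated SG, against 15.9 ± 5.12 CPM in Differentiated SG, without overlap. Kif5b, the widely expressed heavy chain, averaged 111 ± 20.9 CPM in Differentiated SG and overlapped Sertoli at 101 ± 14.1 CPM, which came first with TMM factors.

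**Figure D2:**
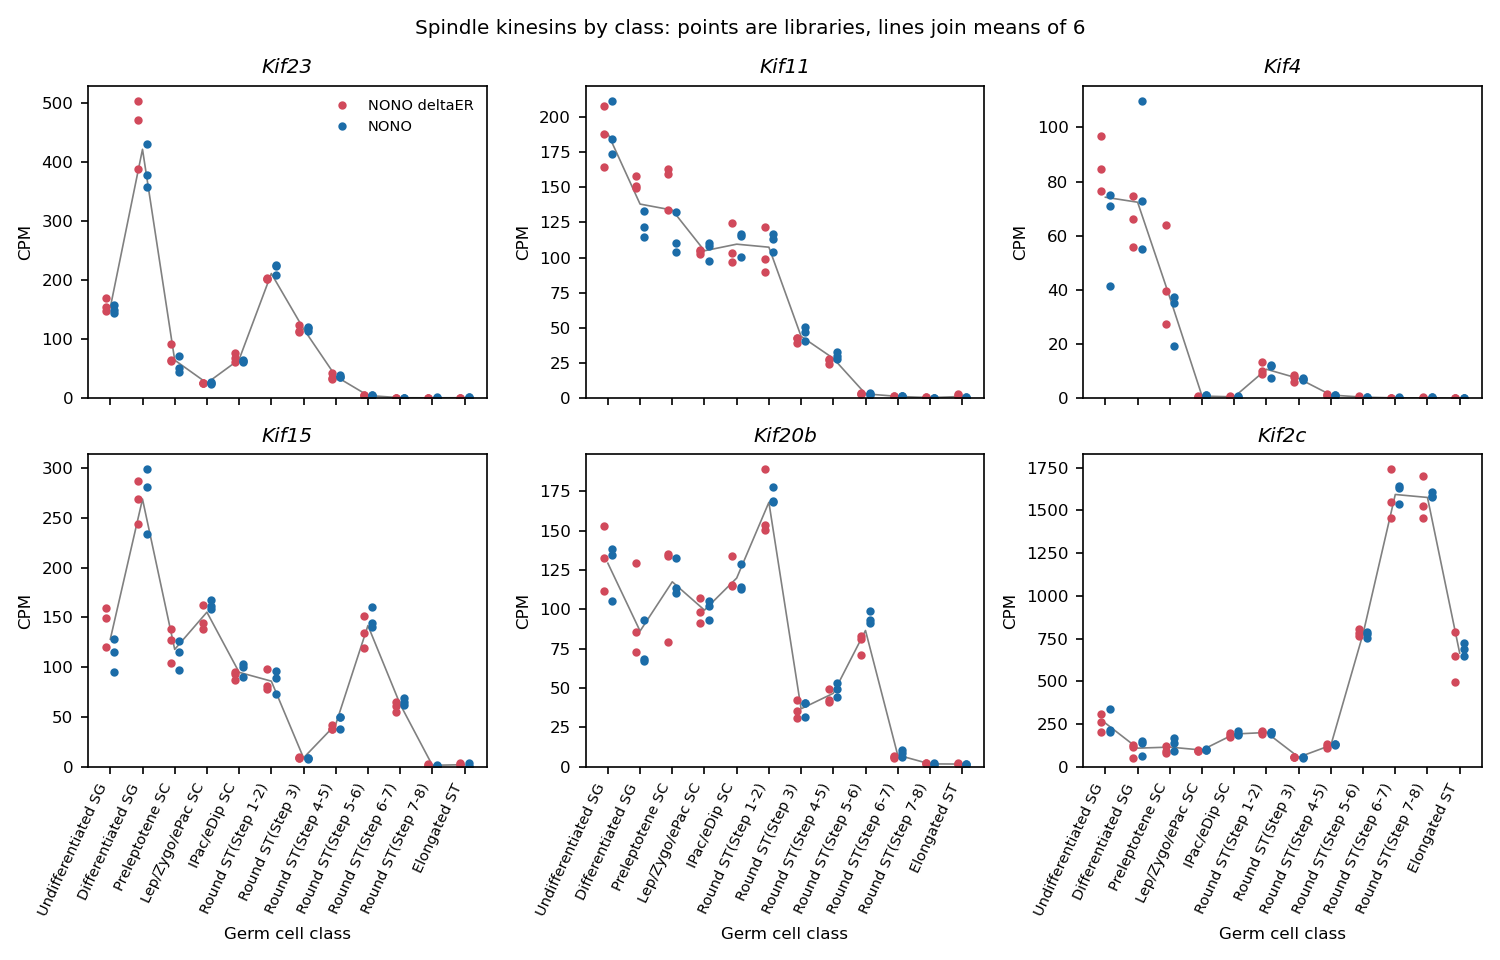
CPM of 6 spindle motors in the 12 germ cell classes, in order of development; red points are the 3 NONO deltaER libraries, blue points the 3 NONO libraries, and grey lines join means of 6. Kif23, Kif11 and Kif4 were low in late spermatids, Kif15 and Kif20b had a further high in steps 5-6 (142 and 86.6 CPM), and Kif2c climbed to 1592 CPM in steps 6-7; with TMM factors over all classes the highest class changed for Kif23, Kif11, Kif4, Kif15 and Kif20b.

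In spermatocytes, 8 of the 11 members were highest in Round ST(Step 1-2). Kif2a, a kinesin-13 that takes microtubule ends apart at spindle poles, had 643 to 723 CPM (median 705) there and averaged 692 ± 30.9 CPM, above all other classes in every library. Kif3b, which forms with Kif3a the motor of intraflagellar transport, had 638 to 723 CPM (median 674) and averaged 678 ± 36.8 CPM, overlapping IPac/eDip SC at 611 ± 23.0 CPM. Kif9, a motor of the central apparatus of motile cilia, averaged 508 ± 19.0 CPM, overlapped Round ST(Step 3) at 495 ± 12.6 CPM and came first in Round ST(Step 7-8) with TMM factors. The cytokinesis motor Kif20a averaged 255 ± 14.7 CPM and the microtubule-end motor Kif18b 196 ± 9.56 CPM, both above all other classes in every library. Kif18a, which damps chromosome movement at the metaphase plate, averaged 123 ± 4.03 CPM and overlapped Differentiated SG at 114 ± 16.1 CPM. Kif20b, a motor of the late steps of cytokinesis, averaged 168 ± 14.5 CPM in Round ST(Step 1-2), 36.8 ± 4.97 CPM in step 3 and 86.6 ± 10.1 CPM in steps 5-6, the class that came first with TMM factors. The other 4 spermatocyte members, Kif6, Kif19a, Kif22 and Kif26b, reached 26.1 to 96.1 CPM. Of these, Kif6, a motor of cilia, stood in Lep/Zygo/ePac SC above all other classes in every library (96.1 ± 7.08 CPM, against 40.9 ± 2.85 CPM in IPac/eDip SC). So did Kif19a, which limits the length of cilia, in IPac/eDip SC (83.8 ± 7.73 CPM, against 50.3 ± 3.11 CPM in Round ST(Step 1-2)). The chromokinesin Kif22 had 23.2 to 29.0 CPM (mean 26.1) in Round ST(Step 1-2) and overlapped Preleptotene SC at 25.3 ± 11.9 CPM.

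Spermatids carried the highest kinesin levels. Kif2b, a kinesin-13 encoded by a gene with 1 exon on chromosome 11, had 2417 to 2573 CPM (median 2495) in Round ST(Step 5-6) and averaged 2492 ± 51.5 CPM. It had 11.6 ± 2.03 CPM in Round ST(Step 1-2), 282 ± 21.2 in step 3, 1377 ± 64.1 in steps 4-5, 891 ± 48.6 in steps 6-7 and 37.4 ± 5.33 CPM in steps 7-8, and no neighbouring ranges overlapped. Kif2c, the kinesin-13 that corrects faulty attachments at centromeres, followed later, with 1452 to 1743 CPM (median 1592) in steps 6-7. Its means of 1592 ± 101 CPM there and 1575 ± 81.6 CPM in steps 7-8 overlapped across libraries, and it had 55.8 ± 1.98 CPM in step 3. A UMI of both genes was found in 67.0% ± 3.79 of cells of steps 4-5, 95.5% ± 1.71 of steps 5-6 and 83.8% ± 1.30 of steps 6-7 (SD over 6 libraries). At the depth of each cell, Kif2b was seen in 98.8% of cells in steps 5-6 (median 13819 UMI) and in 15.3% in Round ST(Step 1-2) (median 15876 UMI), where its level was low. After every cell was thinned to 500 UMI, the shares were 68.4% ± 2.72 and 0.596% ± 0.533.

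Among the other spermatid members, Kif27, a kinesin of motile cilia, averaged 468 ± 45.4 CPM in steps 5-6 and 468 ± 52.1 CPM in steps 6-7, which came first with TMM factors. Kif17, which in mouse testis carries a partner of the regulator CREM, had 288 to 384 CPM (median 300.5) in Elongated ST and averaged 315 ± 35.2 CPM, overlapping steps 7-8 at 254 ± 51.3 CPM. Kif21b, a motor that tunes microtubule growth, averaged 214 ± 14.1 CPM in Elongated ST, above all other classes in every library. Kif3a averaged 210 ± 8.70 CPM in step 3 (208.9 at the median), and overlapped IPac/eDip SC at 204 ± 11.3 CPM, while steps 4-5 came first with TMM factors. Kif5c, a heavy chain of conventional kinesin, averaged 102 ± 8.78 CPM in steps 6-7 and overlapped Sertoli at 80.8 ± 12.3 CPM.

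Within several subfamilies, the leading paralog changed along development. In the kinesin-13 subfamily (Kif2a, Kif2b and Kif2c), Kif2a made up 76.5% ± 1.30 of the UMI in Round ST(Step 1-2), Kif2b 73.5% ± 1.36 in steps 4-5 and 71.2% ± 0.445 in steps 5-6, and Kif2c 61.2% ± 1.41 in steps 6-7 and 92.6% ± 0.381 in steps 7-8. In the kinesin-2 subfamily (Kif3a, Kif3b, Kif3c and Kif17), Kif3b made up 76.3% ± 0.772 in Round ST(Step 1-2) and Kif17 76.5% ± 1.97 in Elongated ST. In the kinesin-1 subfamily (Kif5a, Kif5b and Kif5c), Kif5b made up 84.6% ± 4.04 in Differentiated SG and Kif5c 99.5% ± 0.201 in steps 6-7. The kinesin-1 total was low between, at 12.3 ± 3.21 CPM in Round ST(Step 1-2). Of Kif1a, Kif1b and Kif1c, Kif1b made up 98.9% ± 0.256 in steps 4-5 and Kif1a 63.5% ± 3.58 in steps 6-7. Of the kinesin-8 pair, Kif18a made up 77.7% ± 4.09 in Differentiated SG, Kif18b 69.1% ± 0.986 in step 3, and Kif18a again 69.3% ± 2.28 in steps 5-6, so the lead changed more than once. In Preleptotene SC, Kif18b had 51.5% ± 7.97. The mean share of Kif9 in the kinesin-9 UMI was at least 74.3% in every class, and its lowest library had 67.0%, in Undifferentiated SG. Kif6 reached its highest mean share, 25.7% ± 1.67, in Lep/Zygo/ePac SC.

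**Figure D3:**
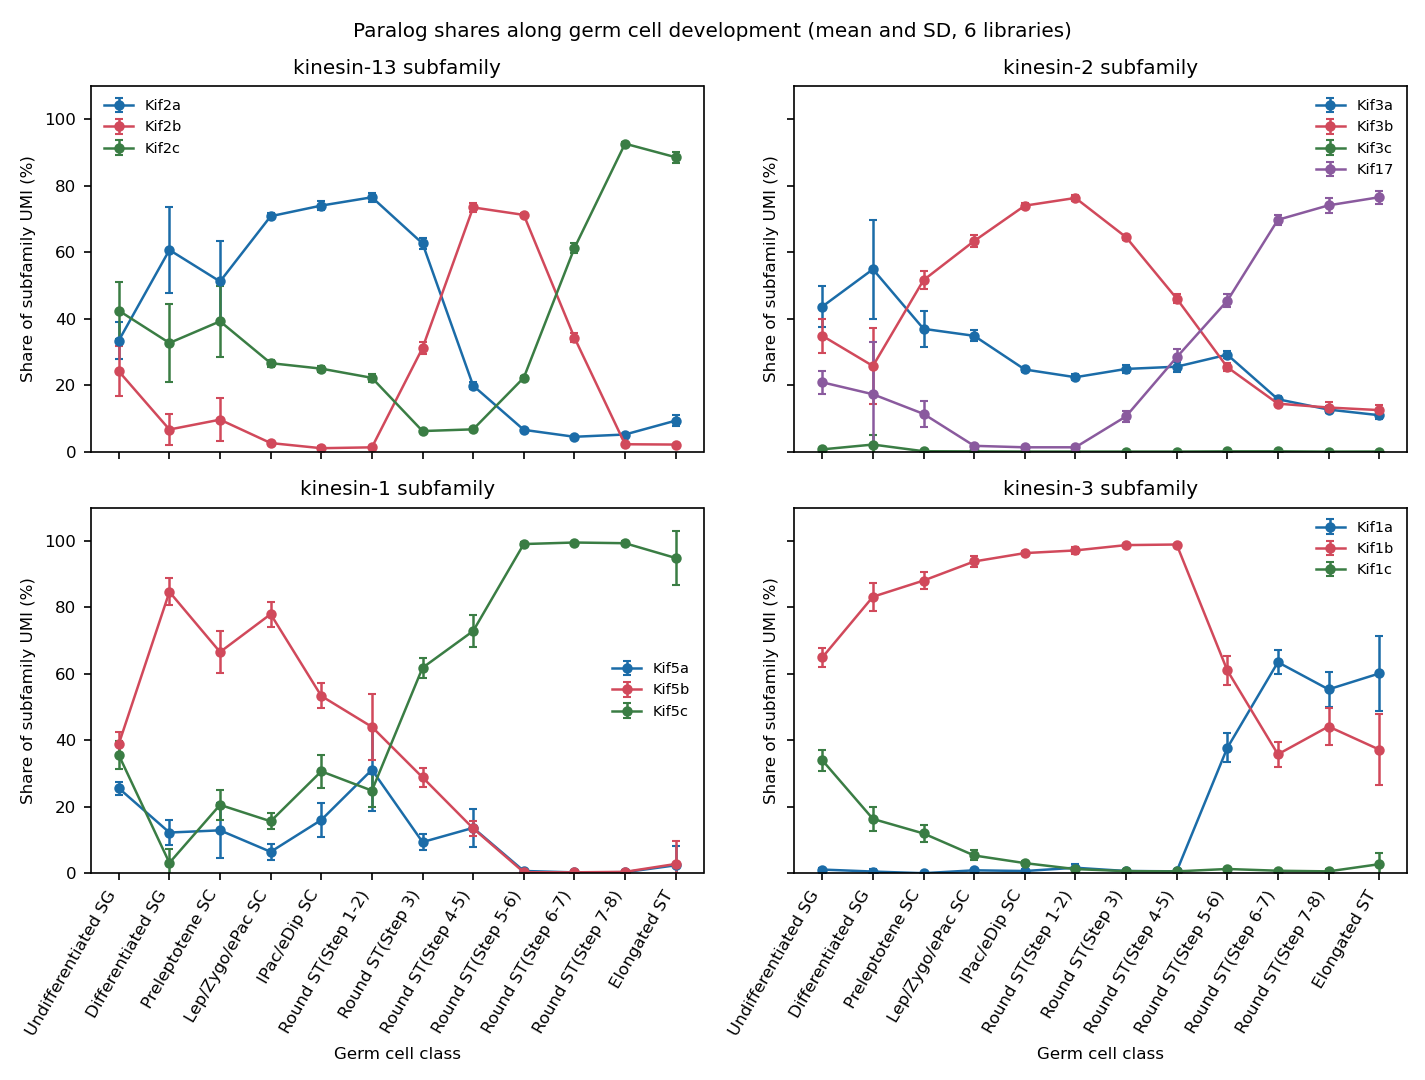
Share of each paralog in the UMI of its subfamily (percent) along the 12 germ cell classes; points are means and bars the SD of 6 libraries. Kif2a, Kif2b and Kif2c follow each other as the leading kinesin-13, Kif17 takes over from Kif3b, Kif5c from Kif5b, and Kif1a from Kif1b in spermatids.

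The family as a whole rested on fewer members in spermatocytes than in Undifferentiated SG, and on fewer still in later spermatids. Summed over the 38 members and with plain totals, kinesins made up 3506 ± 123 CPM in Undifferentiated SG, 5041 ± 124 CPM in steps 5-6 and 1560 ± 172 CPM in Elongated ST. In Undifferentiated SG, 10 members were needed for 50% of the kinesin UMI and the leading member, Kif2c, held 7.27% ± 1.59. The number was 6 in Differentiated SG, 8 in Preleptotene SC and 6 in Lep/Zygo/ePac SC. It was 4 in IPac/eDip SC, in Round ST(Step 1-2) and in step 3, and 3 in steps 4-5. In steps 5-6 Kif2b alone held 49.5% ± 1.67, and in steps 7-8 Kif2c alone held 58.6% ± 0.404.

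Of the 5 members highest in a somatic class, Kif21a stood furthest apart. Kif21a, a motor that restrains microtubule growth at the cell cortex, had 209 to 393 CPM (median 352) in Sertoli cells and averaged 327 ± 67.1 CPM, above all other classes in every library, with Leydig cells next at 50.8 ± 24.9 CPM. A UMI of Kif21a was seen in 37.5% ± 7.27 of Sertoli cells (median 1836 UMI) and 0.626% ± 1.06 of macrophages (median 1032 UMI), and after thinning to 500 UMI in 12.8% ± 2.97 of Sertoli cells and in 0 of 318 macrophages, which at that depth allows up to 0.943% of cells with a UMI, by counting error alone, and sets no limit on cells that express the gene. Kif1c, which moves dense-core vesicles, averaged 166 ± 65.6 CPM in Myoid cells and 131 ± 29.0 CPM in Leydig cells, with overlap, and at most 0.719 CPM in a spermatid class. Kif13a, a motor of the endosomal pathway, averaged 49.3 ± 23.1 CPM in the class Unknown and overlapped Macrophage. Kif1a, a motor of synaptic vesicle precursors in neurons, had 34.2 ± 6.25 CPM in Sertoli and 33.4 ± 4.97 CPM in steps 6-7, and the spermatid class came first with TMM factors. Kif28 had 5.91 ± 2.76 CPM in Sertoli and moved to Round ST(Step 1-2) with TMM factors, and the neighbouring gene Ahctf1 overlaps it on the same strand.

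Somatic cells and spermatogonia also carried transcripts of spermatids, and the levels of Kif2b and Kif2c there stand beside them. The 4 measured of 5 round spermatid markers (Acrv1, Spaca1, Spag6 and Catsper3) summed in Sertoli cells to 9.90% of their level in steps 4-5, in Leydig cells to 18.6%, in Myoid cells to 15.3% and in Undifferentiated SG to 11.1%, with none at 0. Kif2b stood in the same classes at 21.0%, 25.8%, 24.3% and 11.0% of its own level in steps 4-5. These markers were highest in steps 4-5, but Kif2b was highest in steps 5-6. Against its level in steps 5-6, Kif2b stood at 11.6%, 14.2%, 13.4% and 6.06% in the same classes. The 3 measured of 4 elongated spermatid markers (Prm1, Prm2 and Tnp2) reached 23.7% of their highest class in Sertoli cells, where Kif2c had 478 ± 89.1 CPM. The part of transcripts from other cells in these levels was not tested. By plain CPM, Kif21a had at most 12.1 CPM in any spermatid class, against 327 CPM in Sertoli cells. Kif1c had at most 0.719 CPM in a spermatid class, against 166 CPM in Myoid and 131 CPM in Leydig cells. With TMM factors, these genes stayed highest in Sertoli and Myoid cells, and their levels in other somatic classes were not compared on that scale.

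Genes that work with kinesins were read in the same way. Of 46 listed partners, 43 had a UMI, and Prc1, Kifc5b and Tuba3a had none or were not among the genes. Among kinesins under other symbols, the centromere motor Cenpe averaged 578 ± 53.7 CPM in Round ST(Step 1-2), Stard9 310.5 ± 42.8 CPM in Differentiated SG and Kifc3 105 ± 4.49 CPM in steps 5-6. The spindle kinase Aurka had 815 to 869 CPM and averaged 842 CPM and Plk1, another, averaged 387 ± 20.6 CPM, both in Round ST(Step 1-2), where Kif20a and Kif18b were highest. Ect2, the partner of centralspindlin in cytokinesis, averaged 282 ± 35.7 CPM in Differentiated SG, as Kif23 did at its highest. Kifap3, the subunit that joins Kif3a and Kif3b, averaged 482 ± 9.02 CPM in steps 4-5, and Klc3, a kinesin light chain of spermatids, 131 ± 4.61 CPM in steps 6-7, the class of highest Kif5c.

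Between genotypes, no kinesin passed the threshold in any class. Of 646 pairs of a member and a class, 381 had enough counts to be tested, and 36 members were tested in at least 1 class. None had an adjusted p under 0.05 by edgeR's quasi-likelihood test with Benjamini-Hochberg adjustment over all genes of a class, against 0.0154% of all 143072 pairs of a gene and a class, and the lowest adjusted p was 0.156. At an unadjusted p under 0.05 there were 18 (4.72%), against 4.78% of all pairs, so the share of members lay near that of all genes. DESeq2 called 1 pair, against 0.173% of all pairs, and had 12 at an unadjusted p under 0.05, against 2.39%. The median log2 fold change of the 381 pairs was -0.01, against 0.00 over all genes and classes, and 353 lay within 0.5 of 0, with a median standard error of 0.17. The call rests on 3 libraries against 3, and macrophages gave no member enough counts for a test.

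Undifferentiated SG held more low p-values of members than any other class, and there 6 of 34 members tested had an unadjusted p under 0.05, against 16.2% of all genes there, and 0 were called, against 0.0271%. Of these, 4 were lower in NONO deltaER (Kif2a, Kif2b, Kif3b and Kif9, against 10.1% of genes) and 2 were higher (Kif13b and Kif26a, against 6.1% of genes). Kif2a and Kif13b were outside the 12 pairs of lowest p and are named to complete the count, after their values were seen. Kif2b had 111, 60.6 and 144 CPM in TD, TE and TF of NONO deltaER, against 158, 207 and 227 CPM in TA, TB and TC of NONO. All NONO deltaER libraries lay below all NONO libraries. The log2 fold change was -0.95 ± 0.29 (SE), with an adjusted p of 0.173 by edgeR, while DESeq2 gave -0.97 with an adjusted p of 0.0256. Without library TF, edgeR called Kif2b with an adjusted p of 0.0243 and Kif9 with 0.0195. The share of all genes called without 1 library was not counted, so these calls cannot be set against it.

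Kif3b had 108, 114 and 129 CPM in NONO deltaER (TD, TE, TF), against 123, 205 and 172 CPM in NONO (TA, TB, TC). The genotypes overlapped through TF and TA, and the log2 fold change was -0.55 ± 0.18 with an adjusted p of 0.156 by edgeR, or 0.0132 without library TA. Kif9 had 55.7, 64.0 and 100.4 CPM in NONO deltaER, against 101, 98.4 and 154 CPM in NONO, with overlap at TF and TB. Its log2 fold change was -0.73 ± 0.25, with an adjusted p of 0.197 by edgeR. Kif26a, which in mouse enteric neurons restrains signalling by the GDNF receptor, had 49.9, 56.4 and 34.0 CPM in NONO deltaER, against 28.9, 32.4 and 27.1 CPM in NONO, without overlap. Its log2 fold change was 0.60 ± 0.23 with an adjusted p of 0.221 by edgeR.

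Some markers of other cells moved with these values, and others did not. In Undifferentiated SG, the 4 measured round spermatid markers summed to 107.7 to 170.1 CPM in NONO deltaER, against 199.7 to 406 CPM in NONO, and Kif2b is highest in round spermatids. The 4 measured of 5 late spermatocyte markers summed to 341 to 526 CPM in NONO deltaER, against 515 to 905 CPM in NONO. By plain CPM, Kif2a, Kif3b and Kif9 were highest in Round ST(Step 1-2). These markers were highest in Lep/Zygo/ePac SC and stood in Round ST(Step 1-2) at 75.5% of that sum. The 3 measured of 4 elongated spermatid markers, the most abundant of these lists, summed to 5014 to 7268 CPM in NONO deltaER, against 3889 to 8277 CPM in NONO, with overlap. The 5 measured early spermatocyte markers summed to 711 to 795 CPM in NONO deltaER, against 723 to 745 CPM in NONO, also with overlap. The 5 markers of undifferentiated spermatogonia summed to 614 to 897 CPM in NONO deltaER, against 556 to 578 CPM in NONO. No marker of these lists was at 0. Their part in the kinesin values was not tested.

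**Figure D4:**
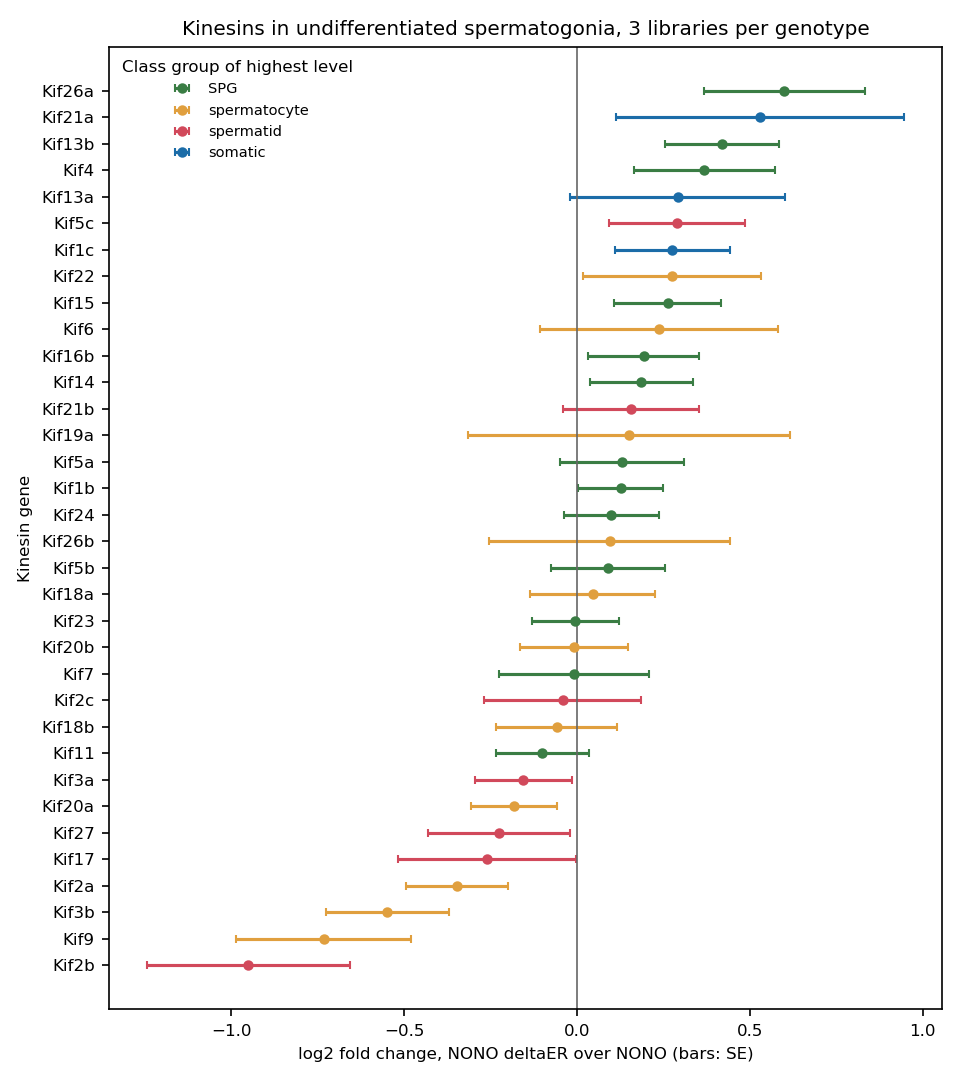
Log2 fold change (NONO deltaER over NONO) of the 34 kinesins tested in undifferentiated spermatogonia, 3 libraries per genotype; bars are standard errors and colours give the group of classes where the gene was highest. Kif2b, Kif9, Kif3b and Kif2a lie at the low end and Kif26a at the high end, and none passed the threshold in edgeR.

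**Figure D5:**
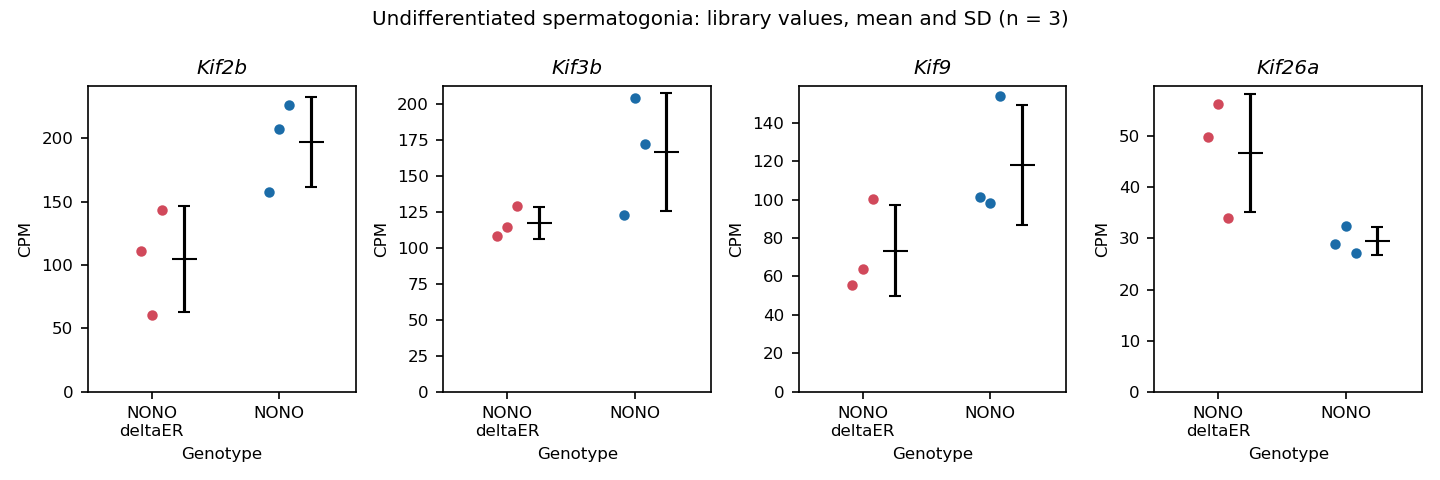
CPM of 4 kinesins in undifferentiated spermatogonia in each NONO deltaER library (red) and each NONO library (blue), with mean and SD (n = 3) in black. The genotypes do not overlap for Kif2b and Kif26a and overlap for Kif3b and Kif9.

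In the other classes, 0 to 2 members per class had an unadjusted p under 0.05. The count was 1 of 18 in Differentiated SG against 6.33% of all genes, 2 of 21 in Preleptotene SC against 11.7%, 1 of 31 in Lep/Zygo/ePac SC against 3.53% and 1 of 31 in IPac/eDip SC against 3.42%. It was 1 of 32 in Round ST(Step 1-2) against 2.35%, 1 of 32 in step 3 against 2.94%, 2 of 33 in steps 4-5 against 2.46%, 1 of 30 in steps 5-6 against 2.94% and 1 of 29 in steps 6-7 against 3.24%. In Leydig cells, 1 of 16 members had an unadjusted p under 0.05, against 3.32% of genes. This was Kif2c, with 107.6, 117 and 124 CPM in NONO deltaER (TD, TE, TF), against 233, 167 and 496 CPM in NONO (TA, TB, TC). The genotypes did not overlap, TC lay far above the other libraries, and the log2 fold change was -1.37 ± 0.41 with an adjusted p of 0.651 by edgeR. The elongated spermatid markers in Leydig cells summed to 3124 to 4496 CPM in NONO deltaER, against 9693 to 16451 CPM in NONO. The round spermatid markers there overlapped, with 152 to 589 CPM in NONO deltaER and 150 to 556 CPM in NONO. So did the late spermatocyte markers, with 215 to 1083 CPM against 313 to 732 CPM. The part of these markers in the Kif2c value was not tested. Kif16b in Differentiated SG had 209, 273 and 157 CPM in NONO deltaER, against 137, 128 and 146 CPM in NONO. It did not overlap between genotypes and had a log2 fold change of 0.63 ± 0.21 and an adjusted p of 0.474 by edgeR. In that class, the 4 markers of differentiating spermatogonia and meiotic entry summed to 930.2 to 1104 CPM in NONO deltaER, against 1137 to 1251 CPM in NONO. The early spermatocyte markers overlapped (3578 to 4018 against 3575 to 3970 CPM), as did the late spermatocyte markers (132 to 230 against 177 to 299 CPM). Sertoli markers, at most 11.2 CPM in a library, did not overlap. The part of these markers in the Kif16b value was not tested.

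Kif20b in steps 5-6 had 71.0, 83.1 and 81.4 CPM in NONO deltaER, against 91.5, 98.9 and 93.5 CPM in NONO, without overlap. Its log2 fold change was -0.25 ± 0.09 with an adjusted p of 1.00 by edgeR. The other 5 pairs were Kif21b in Lep/Zygo/ePac SC (log2 fold change -0.39), Kif5a in Round ST(Step 1-2) (1.29) and in step 3 (0.69), Kif1b in Preleptotene SC (0.45) and Kif14 in steps 4-5 (-0.29). In Preleptotene SC, the late spermatocyte markers summed to 652 to 716 CPM in NONO deltaER, against 897 to 1016 CPM in NONO. In Lep/Zygo/ePac SC, the early spermatocyte markers summed to 1370 to 1483 CPM in NONO deltaER, against 1523 to 1555 CPM in NONO. Neither pair of ranges overlapped. Of other lists, the early spermatocyte markers in Preleptotene SC overlapped (4911 to 5612 CPM in NONO deltaER, 4966 to 5683 in NONO). So did the late spermatocyte markers in Lep/Zygo/ePac SC (4626 to 4766 against 4600 to 4855 CPM). In Preleptotene SC, markers of undifferentiated spermatogonia and macrophages, at most 19.4 CPM in a library, did not overlap. The part of these markers in the values of Kif1b and Kif21b was not tested. Kif5a had at most 8.67 CPM in a library of its 2 classes. For the members with the highest levels, the genotypes lay close. Kif2b in steps 5-6 and Kif2c in steps 6-7 had log2 fold changes of 0.03 ± 0.07 and -0.03 ± 0.08.

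Partner genes gave 0 calls among 500 pairs tested by edgeR, against 0.0154% of all pairs, and 21 at an unadjusted p under 0.05 (4.20%), against 4.78%. DESeq2 gave 0 and 10, against 0.173% and 2.39% of all pairs. The tubulin Tuba3b in Undifferentiated SG came nearest, with 280, 330.0 and 341 CPM in NONO deltaER (TD, TE, TF), against 383, 436 and 492 CPM in NONO (TA, TB, TC). It did not overlap between genotypes, with a log2 fold change of -0.52 ± 0.13 and an adjusted p of 0.105 by edgeR. Tpx2 in steps 6-7 (log2 fold change -0.97), Cdca8 in steps 5-6 (-0.67), Ift74 (-0.42) and Trak2 (0.60) in Undifferentiated SG were not called either. Whether the response of a kinesin differed between neighbouring germ cell classes was tested with limma on 262 pairs of a member and 2 classes, over 11 pairs of classes. None passed, against 0% of all genes, the lowest adjusted p was 0.598, and 11 had an unadjusted p under 0.05, against 5.21% of all genes over these class pairs.

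All 38 members matched 1 gene each in the mm10 annotation, and 24 of them overlap another annotated gene. Antisense genes with UMI of their own cover the 3′ end of Kif2a (Dimt1), Kif3c (1110002L01Rik), Kif7 (Ticrr), Kif20a (Cdc23) and Kif27 (Gm26555), and whether the counting kept the strands apart was not stated, so reads of such pairs may not be told apart. Kif4 and Kif22 each have an annotated processed pseudogene, and their levels are uncertain to the extent that reads could fall on either copy.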

How the data were processed

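Per the labels, testis cells were captured with the 10x Genomics single-cell 3′ v2 chemistry. The authors deposited a matrix of UMI counts per gene and cell, a class name for each cell and the percent of mitochondrial UMI. Cell Ranger 2.1.1 and the mm10 build are named in the submitters' processing notes. The mitochondrial percent was used for 1 alternative fit only.

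For each library and fine class, UMI counts were summed over cells. CPM were taken from the plain totals. Genotypes were compared per class in R 4.3.3 with edgeR 4.0.16 (TMM, filterByExpr, robust quasi-likelihood test), adjusted by Benjamini-Hochberg over all genes of the class at a threshold of 0.05. Differences between neighbouring classes used limma 3.58.1 on log2 CPM computed from the deposited counts with a prior count of 2. Unlike the levels, these CPM were scaled with TMM factors within each class, for genes that passed filterByExpr in both classes. For the genotype comparison, DESeq2 1.42.0 was an alternative. The procedure was tested on simulated data. Doublets were not removed, and an alternative left out the 5% of cells with the most UMI. Libraries were assigned to genotypes from the deposited cell table and are not tied to numbered samples.

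Levels are named for the members with the highest level in each of 4 groups of classes, at most 7 a group. Kif4, Kif5a, Kif5b, Kif6, Kif7, Kif14, Kif19a and Kif22 fall outside that rule and were added after their values were seen. Genotype pairs are named for the 12 lowest p among those with a mean of at least 10 UMI per library. Members and lists were chosen with earlier results of these data known. Promoter sequences come from RefSeq. Intervals between libraries are SDs, which include counting error.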

Additional observations from a re-analysis of the deposited data

How the results depend on the processing

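No kinesin was called by edgeR with upper-quartile factors, with cells of at least 1000 UMI, with equal numbers of cells, without the 5% of cells with the most UMI or with the library set by mitochondrial share as a term. DESeq2 called 1 pair (Kif2b in Undifferentiated SG), and no filter on low counts called 4 (Kif2b, Kif3b and Kif9 in Undifferentiated SG and Kif2b in IPac/eDip SC). Leaving out 1 library gave 0 to 2 calls, with 1 without TA and 2 without TF. Partner genes had 2 calls with equal numbers of cells (Tuba3b and Tubb4b in Myoid), 2 with no filter, and 0 to 3 without 1 library (3 without TA, 2 without TF). Apart from DESeq2, the share of all genes called under these fits was not counted, so the counts cannot be set against it. The test between neighbouring classes gave 0 throughout. The 12 named pairs kept their direction in all 156 alternative values, and 7 of these passed the threshold. The pairs were chosen for low p in these same libraries, which every alternative used again, at most leaving 1 out. A change of direction was thus unlikely from the start, and the kept direction is no independent support. With TMM factors over all classes, the class of highest level stayed for 22 of 36 members and 24 of 26 named levels moved by 1 SD or more. These moves follow from the scaling, which divides the CPM of a class and library by its factor. No paired analysis was possible because the libraries in the deposited cell table carry no replicate number. With 3 libraries per genotype, p-values rest on few samples, and Macrophage gave no kinesin enough counts for a test.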
